A study of Mus musculus with 4 samples.

Results

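Transcripts of glycolysis and of the hypoxia-inducible factors (HIF) were followed gene by gene through the cell types of mouse bone. The set held 39 genes, picked by symbol from the 31053 genes of the deposited matrices. It joined 19 genes of glucose uptake, glycolysis and its control with 20 further genes grouped here as HIF targets. The 39 genes occupied 40 entries of each matrix, because Aldoa has 2 identifiers. Single cells came from tibiae and femurs of wild-type mice, in 2 libraries from untreated animals (Ctrl) and 2 from animals that had been tail-suspended for 28 days (hindlimb unloading, HLU), a model that takes the load off the hind limbs. Marrow was washed out of the bones, and what remained was digested enzymatically before droplet capture. The libraries are named by group and replicate. The study's methods name C57BL/6J mice for the unloading model, but the sources differ on their age. For the single cells the methods give n = 2 for control and for tail-suspended mice, while no label ties a library to an animal. The comparison asks how the cells of bone respond when mechanical load is removed.

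Glycolysis splits glucose into pyruvate in the cytosol, and cells short of oxygen turn that pyruvate into lactate to keep the pathway running. HIF is a transcription factor whose alpha subunit is hydroxylated by the Egln enzymes when oxygen is plentiful and is then degraded. When oxygen is scarce the subunit persists, enters the nucleus and raises glucose transporters, nearly every glycolytic enzyme and genes for new vessels, mitophagy and collagen hydroxylation. Neutrophils have few working mitochondria and live largely on glycolysis, and growth plate cartilage is a tissue without vessels in which HIF is active.

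HIF binds a short core, ACGTG or GCGTG, on either strand. The letters around the start sites of the genes are shown because most of the set shares this core. RefSeq promoters of GRCm38.p6, from 250 bases before to 50 after each start, were found for 35 of the 39 genes (53 windows, with Ero1l found under its synonym Ero1a), and not for Ndrg1, Bnip3l, Slc2a3 and Bhlhe40. The core stood in 43 of the 53 windows (81.1%), against 14380 of 32851 windows of all genes (43.8%). Of the 35 genes, 33 (94.3%) had it in at least 1 window, against 12628 of 27025 genes (46.7%), and the exceptions were Gpi1 and Tpi1. The palindrome CACGTG, which contains the core, stood in 4 of the 53 windows (7.55%) and in 7.15% of all windows. Such a match describes letters and is no evidence of binding. The stretches below run from 220 to 21 bases before the start site of 6 genes of different roles, picked after values were seen among windows free of annotated exons, 5′ to 3′ on the strand of the gene, with the core in capitals (as CACGT or CACGC where it lies on the other strand).
Bnip3, chr7:138909527-138909726, - strand: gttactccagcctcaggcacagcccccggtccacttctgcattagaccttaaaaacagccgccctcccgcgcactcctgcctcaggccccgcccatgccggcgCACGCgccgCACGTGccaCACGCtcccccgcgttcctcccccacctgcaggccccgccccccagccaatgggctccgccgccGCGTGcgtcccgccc
Pfkp, chr13:6648792-6648991, - strand: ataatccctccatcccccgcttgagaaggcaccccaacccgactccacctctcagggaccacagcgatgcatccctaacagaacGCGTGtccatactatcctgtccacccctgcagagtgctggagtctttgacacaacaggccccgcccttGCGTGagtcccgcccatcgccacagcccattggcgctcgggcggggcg
Pgk1, chrX:106186880-106187079, + strand: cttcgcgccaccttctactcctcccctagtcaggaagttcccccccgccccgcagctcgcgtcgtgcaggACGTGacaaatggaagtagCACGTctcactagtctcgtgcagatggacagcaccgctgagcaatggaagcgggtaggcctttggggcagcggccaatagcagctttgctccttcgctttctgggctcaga
Pgam1, chr19:41911651-41911850, + strand: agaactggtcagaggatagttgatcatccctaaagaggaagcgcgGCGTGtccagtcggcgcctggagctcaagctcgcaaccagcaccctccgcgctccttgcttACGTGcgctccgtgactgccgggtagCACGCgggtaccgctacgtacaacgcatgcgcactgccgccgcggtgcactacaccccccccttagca
P4ha1, chr10:59323076-59323275, + strand: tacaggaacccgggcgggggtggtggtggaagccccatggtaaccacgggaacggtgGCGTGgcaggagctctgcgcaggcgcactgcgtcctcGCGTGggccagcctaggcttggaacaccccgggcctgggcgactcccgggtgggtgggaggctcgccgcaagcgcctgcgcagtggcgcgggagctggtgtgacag
Adm, chr7:110627437-110627636, + strand: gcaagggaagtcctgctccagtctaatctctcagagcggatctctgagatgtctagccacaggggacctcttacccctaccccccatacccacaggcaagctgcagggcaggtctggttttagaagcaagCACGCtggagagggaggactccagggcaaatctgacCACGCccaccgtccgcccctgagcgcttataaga
Bnip3, which encodes a mitophagy receptor, had 5 matches in this stretch, 2 of which overlap in its CACGTG, once on each strand. Pgam1, which encodes phosphoglycerate mutase, had 3, and each of the other 4 stretches had 2.

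Barcodes with 1000 to 40000 unique molecular identifiers (UMIs, each standing for 1 captured transcript) and at most 10% mitochondrial UMIs were used. Sets of 4 values are given here and below for Ctrl replicates 1 and 2, then HLU replicates 1 and 2. These barcodes numbered 7340, 7635, 7757 and 9485 and held 56279602, 58763775, 45347595 and 87604282 UMIs. Any pair of libraries shared 23 to 36 barcode sequences. Cells were clustered without the 39 genes and grouped into 7 classes by marker genes, so that a class name means only resemblance to that type by its markers. A further 1235, 1408, 1180 and 404 barcodes stayed unnamed. Others carried names outside the 7 classes, such as erythroid cells. Osteochondral cells, which are the 5 clusters with raised chondrocyte, osteoblast or stromal markers, numbered 3276, 2270, 87 and 192. Stage II (mature) neutrophils numbered 1276, 1721, 2756 and 3162, stage I (immature) neutrophils 676, 905, 1719 and 1897, and neutrophil progenitors 272, 315, 605 and 839. Monocytes numbered 228, 352, 453 and 1369, B cells 159, 310, 632 and 449, and T cells 61, 149, 105 and 425. The HLU libraries thus held few cells of bone itself, and a class lower in number cannot be told apart here from a change in how well its cells were released. Transcripts of the osteochondral marker list made up 5.21% and 4.69% of all UMIs in the Ctrl libraries but 0.195% and 0.125% in the HLU libraries. HLU replicate 2 stood apart from the other 3 libraries in the 39 genes, as described below, and held the most UMIs. The libraries of a group did not hold copied counts: the chi-squared per degree of freedom over gene sums was 3.12 to 59.4 between the Ctrl and 14.2 to 281 between the HLU libraries. That measure is set against counting error only and cannot tell whether the libraries came from separate animals.

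Levels are given as CPM, the UMIs of a gene per 1000000 UMIs of its class in the same library. They are compared between classes and libraries and not between genes. By the mean over the 4 libraries, 12 of the 19 glycolysis genes were highest in stage II neutrophils (Hk1, Gpi1, Pfkl, Pfkp, Aldoa, Tpi1, Pgam1, Pkm, Ldha, Slc2a3, Slc16a3 and Pfkfb4), 4 in monocytes (Gapdh, Pgk1, Eno1 and Pfkfb3), 2 in osteochondral cells (Hk2 and Slc2a1) and 1 in T cells (Pdk1). Of the 20 HIF targets, 11 were highest in osteochondral cells (Egln1, Vegfa, Adm, Ndrg1, P4ha1, P4ha2, Ddit4, Higd1a, Fam162a, Ak4 and Bhlhe40), 7 in stage II neutrophils (Bnip3, Bnip3l, Egln3, Ero1l, Kdm3a, Mxi1 and Hilpda) and 2 in monocytes (Ankrd37 and Selenbp1). The same class was highest in each of the 4 libraries for 11 genes, which were Slc2a3, Slc16a3 and Egln3 (stage II neutrophils), Pgk1 and Eno1 (monocytes), Pdk1 (T cells), and Adm, Ndrg1, P4ha1, P4ha2 and Higd1a (osteochondral cells). For several others the first and second class lay close, with ratios of 1.07 for Gapdh (monocytes and stage II neutrophils), 1.06 for Pkm and 1.05 for Bhlhe40, less than the spread between libraries. The HLU libraries also weigh on these means. Hk2 was highest in osteochondral cells in HLU replicate 2 only, and in stage II neutrophils in both Ctrl libraries. In both Ctrl libraries Vegfa was higher in stage II neutrophils (321 and 497 CPM) than in osteochondral cells.

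**Figure D1:**
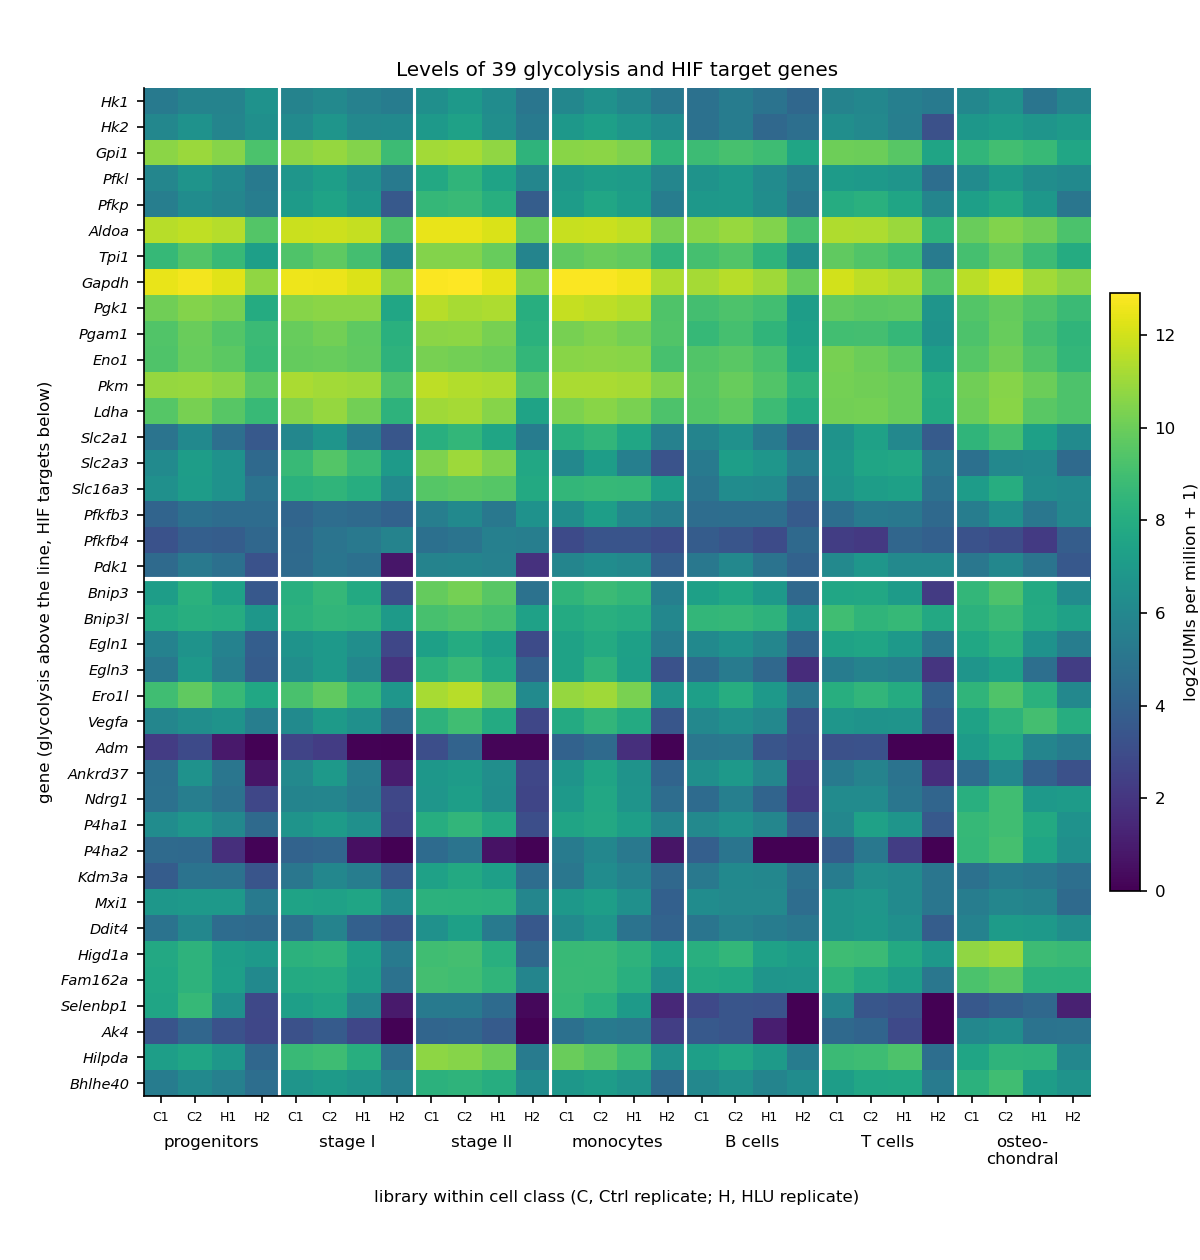
Colour gives log2(CPM + 1) of each of the 39 genes (lines of the grid) in each library of each cell class (columns; C, Ctrl replicate; H, HLU replicate), with glycolysis genes above the white line and HIF targets below. Within a line, stage II neutrophils and monocytes are bright for most glycolysis genes, osteochondral cells for P4ha2, Adm and Higd1a, and the column of HLU replicate 2 is the darkest of its class for most genes.

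Glucose enters cells through facilitative transporters. Slc2a3, the high-affinity neuronal-type transporter, gave 1359, 2066, 1365 and 210 CPM in stage II neutrophils, where its mean was 3.0 times that of the next class, stage I neutrophils (409, 699, 431 and 128). In monocytes it gave only 64.2, 143, 45.9 and 8.83. Its level in stage II neutrophils of a library was thus above that of monocytes of the same library in all 4 cases. Slc2a1, the widely expressed transporter, behaved otherwise: 283, 367, 187 and 42.4 CPM in stage II neutrophils, 282, 359, 200 and 50.5 in monocytes, and 341, 552, 158 and 72.3 in osteochondral cells. These 3 classes overlapped. Slc16a3, the exporter of lactate, was highest in stage II neutrophils with 733, 804, 724 and 224, which was 1.90 times the mean of monocytes (370, 403, 388 and 149).

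Among the enzymes, Gapdh, which makes the first reduced cofactor of the pathway, gave 7149, 7183, 6360 and 2547 CPM in monocytes and 2316, 2946, 2108 and 949 in B cells. Aldoa, which splits the phosphorylated sugar, gave 5634, 5606, 4644 and 955 in stage II neutrophils and 976, 1411, 1114 and 607 in osteochondral cells. These were the classes with the lowest levels of each gene in the Ctrl libraries, and HLU replicate 2 was the lowest library in each of them. Eno1, enolase, was 1.42 times higher in monocytes (1557, 1604, 1553 and 569) than in the next class. Pdk1, a kinase that holds back the oxidation of pyruvate in mitochondria, was highest in T cells with 65.8, 109, 65.5 and 65.4. There HLU replicate 2 was level with Ctrl replicate 1 and HLU replicate 1. In stage I neutrophils of that library Pdk1 was at 0.699, beside 20.95, 31.6 and 26.4 in the others.

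Among the HIF targets, the largest distance between classes was that of the collagen hydroxylase subunit P4ha2, with 383, 544, 189 and 85.9 CPM in osteochondral cells, 8.57 times the next class. Adm, which encodes the vasodilator peptide adrenomedullin, gave 133, 219, 57.3 and 41.3 there (5.20 times the next class, B cells). Higd1a, a mitochondrial protein of the respiratory chain, gave 1707, 2109, 463 and 427 (3.55 times), and the stress-induced gene Ndrg1 gave 282, 498, 127 and 135 (2.29 times). In these 4 genes every library had its highest level in osteochondral cells. Both HLU libraries lay below both Ctrl libraries there, as they did for 15.4% of all genes of that class. Stage II neutrophils led for Kdm3a, a histone demethylase, with 168, 224, 156 and 23.5 (2.51 times the next class), and for Bnip3 with 935, 1167, 759 and 28.1 (2.21 times). In HLU replicate 2 neither gene kept this lead, since Kdm3a was at 32.3 in T cells and Bnip3 at 74.0 in osteochondral cells of that library. In HLU replicate 2, 12 of the 20 HIF targets were highest in osteochondral cells and 1 in stage II neutrophils, against 8 and 10 in Ctrl replicate 1 and 9 and 9 in Ctrl replicate 2.

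Related genes were compared as a pair, by the percent of the UMIs of both that fell on the first. Slc2a1 took 12.1% to 17.3% of the Slc2a1 and Slc2a3 UMIs of stage II neutrophils over the 4 libraries, but 71.5% to 85.1% in monocytes and 69.4% to 92.9% in osteochondral cells. The ranges of stage II neutrophils and monocytes did not overlap, and the exact binomial (Clopper-Pearson) 95% intervals, which cover counting error only, were 11.5% to 12.7% for the lowest and 16.2% to 18.3% for the highest library of stage II neutrophils. Of the bifunctional enzymes that set the level of the activator of phosphofructokinase, Pfkfb3 took 85.8% to 94.2% of the pair's UMIs in monocytes and 22.9% to 45.9% in stage I neutrophils, the rest falling on Pfkfb4. P4ha1, the other collagen hydroxylase subunit, took 47.7% to 54.7% of the P4ha UMIs of osteochondral cells and 74.7% to 100% in the other 6 classes.

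Egln1, the main HIF prolyl hydroxylase, took 31.5% to 42.0% of the Egln1 and Egln3 UMIs in stage II neutrophils but 70.1% to 89.3% in B cells and 71.6% to 91.5% in T cells. Egln3 thus took the larger part in stage II neutrophils of every library and the smaller part in both kinds of lymphocyte. Hk1 took 23.2% to 39.5% of the hexokinase pair in osteochondral cells and 43.5% to 59.5% in B cells. In some classes a single library set the range of a pair. Egln1 took 40.6% to 82.6% of its pair in monocytes, with the top value in HLU replicate 2. Pfkl took 37.0% to 82.0% of the phosphofructokinase pair of stage II neutrophils, with the top value in HLU replicate 2, where Pfkp was at 13.2 CPM beside 379, 421 and 269 in the others. Bnip3 took 5.37% to 52.0% of the pair with its relative Bnip3l in stage I neutrophils, with the lowest value in HLU replicate 2. In that class Bnip3 was at 280, 381, 229 and 7.46 and Bnip3l at 315, 352, 338 and 131. No test was made between classes, whose levels come from the same 4 libraries.

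From neutrophil progenitors over stage I to stage II, most of the 39 genes increased step by step in 3 libraries: 34 did in Ctrl replicate 1, 29 in Ctrl replicate 2 and 27 in HLU replicate 1. In HLU replicate 2, 8 did and 10 decreased at both steps. The share of all genes with such a stepwise increase was 40.5%, 38.4%, 39.2% and 20.7%. Stage II neutrophils were above progenitors for 38, 38, 36 and 17 of the 39 genes, beside 54.3%, 51.9%, 53.0% and 34.1% of all genes, and the median ratio of stage II to progenitor levels was 2.93, 2.39, 2.23 and 0.883. Slc2a3 had a ratio of 19.4, 14.3, 14.3 and 10.5, and thus increased in every library. Hilpda, which blocks the breakdown of lipid droplets, had 11.1, 7.87, 9.51 and 2.11.

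Some genes changed their order in HLU replicate 2. Ero1l, the oxidase that forms disulfide bonds in the endoplasmic reticulum, went from 488 to 2349 CPM between progenitors and stage II neutrophils in Ctrl replicate 1 and from 415 to 1281 in HLU replicate 1, but from 206 to 70.9 in HLU replicate 2. Vegfa, the growth factor of vessels, went from 60.0 to 321 in Ctrl replicate 1 and from 45.1 to 5.60 in HLU replicate 2. Ldha, the enzyme that makes lactate, went from 714 to 2095 in Ctrl replicate 1 and from 412 to 180 in HLU replicate 2. Selenbp1, which encodes a methanethiol oxidase, was the only gene to decrease over both steps in any of the other 3 libraries, and it decreased over both steps in all 4 libraries, from 188, 397, 89.3 and 5.92 in progenitors to 36.8, 39.4, 21.6 and 0.202 in stage II neutrophils. In the same stage II cells the median UMIs per cell were 1916, 2481, 2366.5 and 4061, and transcripts of 8 neutrophil genes made up 18.8%, 19.6%, 21.8% and 33.6% of UMIs, and the part of this difference in these levels was not tested.

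**Figure D2:**
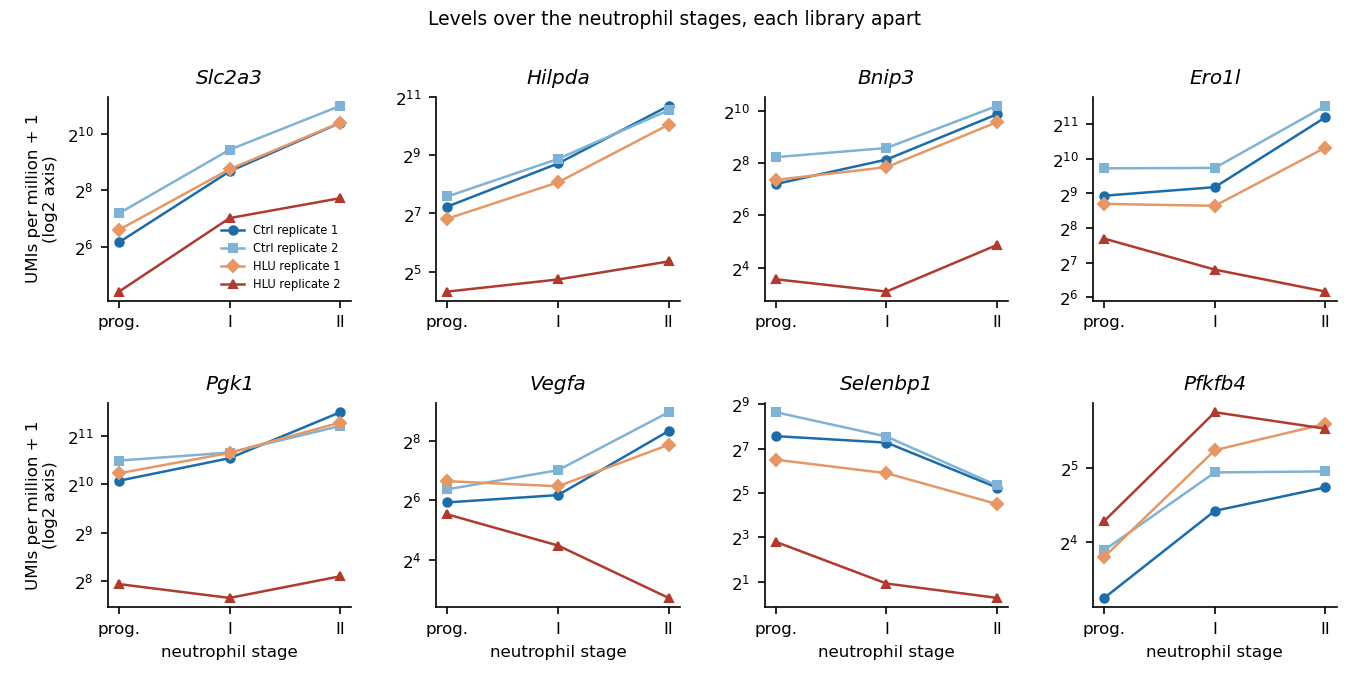
Level (CPM + 1, log2 axis) of 8 genes in neutrophil progenitors (prog.), stage I and stage II neutrophils, 1 line per library. Slc2a3 goes up in each library, Ero1l and Vegfa end higher in 3 libraries and lower in HLU replicate 2 (206 to 70.9 and 45.1 to 5.60), Selenbp1 goes down in all 4, and Pfkfb4 is highest in an HLU library at each stage.

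Summed over the 19 glycolysis genes, stage II neutrophils had 30803, 31628, 24632 and 5274 CPM. The 20 HIF targets summed to 8762, 10247, 6034 and 594. HLU replicate 1 was thus below the Ctrl libraries and HLU replicate 2 far below all others. The Ctrl mean of the HIF targets, 9505 ± 1050 (SD, n = 2), was 1.58 times HLU replicate 1 and 16.0 times HLU replicate 2, and the HLU mean of 3314 ± 3846 (SD, n = 2) has an SD larger than itself. For the glycolysis genes the same factors were 1.27 and 5.92.

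In the other classes HLU replicate 2 was again lowest for both sums. The Ctrl mean of the HIF targets was 8.05 times HLU replicate 2 in monocytes, 6.81 in stage I neutrophils, 5.37 in T cells, 3.81 in progenitors, 3.48 in osteochondral cells and 3.39 in B cells. The same mean was 1.22 (T cells) to 2.00 (osteochondral cells) times HLU replicate 1. In monocytes the HIF targets summed to 6041, 6836, 4337 and 799, and the glycolysis genes to 24543, 25393, 22045 and 8866. In osteochondral cells they summed to 5747, 8352, 3526 and 2026, and the glycolysis genes to 10046, 14856, 8505 and 5586. For HLU replicate 1 the glycolysis sum was 1.13 (monocytes) to 1.46 times (osteochondral cells) below the Ctrl mean. In the unnamed barcodes, outside the 7 classes, the glycolysis sum of HLU replicate 1 was instead 1.15 times the Ctrl mean. The HIF sum of HLU replicate 1 there was 0.599 times the Ctrl mean. A class-wide sum over 2 libraries a group carries no test of its own here.

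**Figure D3:**
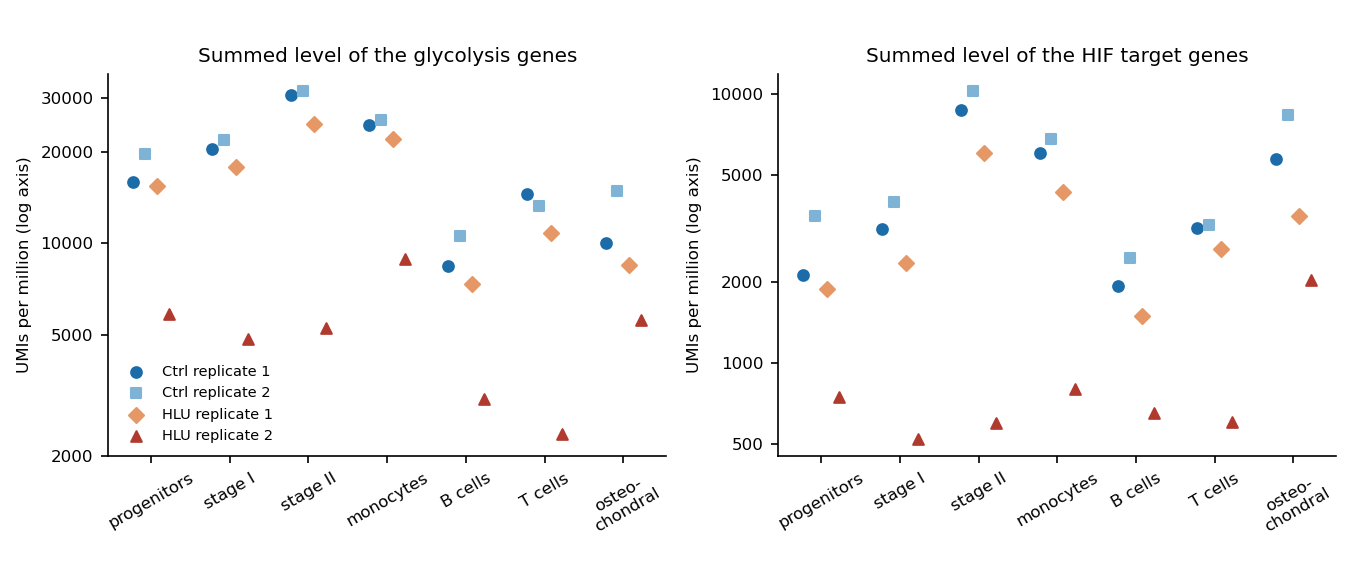
Summed level in CPM (log axis) of the 19 glycolysis genes (left) and the 20 HIF target genes (right) in 7 cell classes, 1 symbol per library. HLU replicate 2 (triangles) is lowest in every class for both sums, and HLU replicate 1 (diamonds) is below both Ctrl libraries in every class.

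UMIs summed per library and class were compared between HLU and Ctrl with edgeR's quasi-likelihood test over all genes of the class, with Benjamini-Hochberg adjustment and a threshold of 0.05. Each group held 2 libraries. Fold changes and p-values used sums normalised between libraries, while counts of genes lower or higher in both HLU libraries used CPM without that normalisation. In osteochondral cells the normalisation factors were 0.897 and 0.881 (Ctrl) and 1.17 and 1.08 (HLU). Such counts and their shares of all genes carry that offset. In stage II neutrophils 2 of the 39 genes were called lower, P4ha2 and Adm, where 2.71% of the 9026 genes tested were called. Of the 39, 37 had a log2 fold change below 0 (47.9% of all genes), with a median of −1.37 beside 0.035 over all genes tested, and 35 lay lower in both HLU libraries than in both Ctrl libraries (23.4% of all genes). The other 4 were Pfkfb3, Pgk1 and Slc2a3, whose groups overlapped, and Pfkfb4, which lay higher in both HLU libraries (16.9% of all genes). In stage I neutrophils P4ha2 and Adm were called lower, where 2.23% of all genes were called, 2.2% lower and 0.029% higher. There 38 of the 39 fold changes were below 0 (49.2% of all genes), 8 had an unadjusted p under 0.05 (8.5%), the median was −1.08, and 30 genes lay lower in both HLU libraries (18% of all genes). In B cells P4ha2 was called lower, where 0.732% of all genes were called, 0.709% lower and 0.0229% higher. There 38 of the 39 were below 0 (49.6%), 19 had an unadjusted p under 0.05 (5.86%), the median was −1.10, and 28 genes lay lower in both (10.7% of all genes). Without HLU replicate 1 the calls in these 3 classes were 39, 36 and 33, in fits that called 45.4%, 31.9% and 15.5% of all genes. Without HLU replicate 2 they were 10, 7 and 11, beside 7.78%, 4.6% and 4.42% of all genes, with medians of −0.62, −0.55 and −0.67. Without Ctrl replicate 1 they were 3, 2 and 1 (2.42%, 1.04% and 0.908% of all genes), and without Ctrl replicate 2 they were 2, 2 and 0 (1.76%, 1.43% and 0.467%), since P4ha2 of B cells then did not pass the filter on low counts.

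In the other 4 classes edgeR called 0 of the genes. In monocytes 38 of 39 fold changes were below 0 (46.7% of all genes, median −0.98 for the set), 28 genes lay lower in both HLU libraries (16% of all genes), 4 had an unadjusted p under 0.05 (5.19% of all genes) and DESeq2 called 2 (1.51% of all genes), where edgeR called 0.211% of all genes. In progenitors 37 of 39 were below 0 (45.6% of all genes, median −0.98 for the set), 15 lay lower in both (9.88% of all genes) and Hk1 higher in both (33.3%), 7 had an unadjusted p under 0.05 (5.81%) and DESeq2 called 2 (1.85% of all genes), with 0.465% of all genes called by edgeR. In T cells all 34 tested genes were below 0 (46.7% of all genes, median −1.25 for the set), 23 lay lower in both (14.3%), 11 had an unadjusted p under 0.05 (5.87%) and DESeq2 called 0 (0.687% of all genes), with 0.442% of all genes called by edgeR. Adm, Ak4, Pfkfb4, Selenbp1 and P4ha2 did not pass the filter on low counts in T cells. In osteochondral cells 38 of 39 were below 0 (50.7% of all genes, median −1.24 for the set), 26 lay lower in both (15.4%) and 0 higher in both (44.5%), 25 had an unadjusted p under 0.05 (21.1% of all genes) and DESeq2 called 20 (6.67% of all genes), with 0% of all genes called by edgeR. Without HLU replicate 1 the calls of monocytes, progenitors, T cells and osteochondral cells were 38, 36, 31 and 26, in fits that called 36.7%, 36%, 7.26% and 14.7% of all genes. Without HLU replicate 2 they were 5, 9, 0 and 4, beside 3.06%, 3.6%, 0.291% and 3.91% of all genes, with medians of −0.37, −0.42, −0.60 and −1.15. Without either Ctrl library they stayed at 0, in fits that called 0% to 0.494% of all genes. Across the 7 classes the median of the HIF targets ranged from −1.84 (osteochondral cells) to −1.22 (B cells) and that of the glycolysis genes from −1.2 (T cells) to −0.69 (monocytes).

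P4ha2 (ENSMUSG00000018906, chr11:54100095-54131665, + strand of GRCm38) in stage II neutrophils was at 21.7, 30.1, 0.530 and 0.0675 CPM, the last from 1 UMI. Both HLU libraries lay far below both Ctrl libraries, with a log2 fold change of −6.51 (SE 0.71, edgeR adjusted p = 0.0173). In stage I neutrophils it was at 16.1, 17.9, 0.430 and 0, where the 0 of HLU replicate 2 stands for a level at least 122-fold lower than the Ctrl mean (3 counts as the limit). The fitted change there was −6.49 (SE 0.87, edgeR adjusted p = 0.0217). In B cells it was at 14.2, 31.6, 0 and 0, so that the HLU level was at least 31.5-fold lower than the Ctrl mean (3 counts over both libraries, edgeR adjusted p = 0.0287). Adm (ENSMUSG00000030790, chr7:110627661-110629820, + strand) was at 7.56, 16.1, 0.132 and 0.135 in stage II neutrophils (log2 fold change −6.13, SE 0.71, edgeR adjusted p = 0.0191). In stage I neutrophils Adm was at 5.24, 3.95, 0.0716 and 0 (−6.86, SE 0.86, edgeR adjusted p = 0.0177), and the 0 of HLU replicate 2 stands for a level at least 32.9-fold lower than the Ctrl mean. Both genes were close to 0 in both HLU libraries, and both were called in both neutrophil stages with any 1 library left out. In the classes where it was called, each gene passed the filter on low counts through the Ctrl libraries alone. These calls are therefore no independent support for a fall. With a minimum of 10 counts in every library neither gene was tested in the classes where it was called. Without putative doublets the calls of P4ha2 in stage I neutrophils and B cells were lost (log2 fold changes −5.86 and −7.83), as was the one in B cells with no integration.

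Both genes are at their highest in osteochondral cells, and osteochondral marker transcripts differed between the groups in the blood cells too. The list of 33 such transcripts made up 0.225% to 0.618% of the UMIs of the 6 other classes in the Ctrl libraries and 0.00505% to 0.0477% in the HLU libraries. In Ctrl stage I and stage II neutrophils P4ha2 stood at 3.30% to 5.66% of its osteochondral level, where the marker list stood at 3.0% to 5.29% of its own. In those 4 cases the level of P4ha2 was 1.02 to 1.40 times the one that the list's share would give. Adm there was at 0.561 to 1.80 times that level. In Ctrl B cells P4ha2 was at 0.972 and 0.847 times that level. The part of osteochondral RNA in these calls was not tested. Adm in B cells gave 33.1, 36.7, 9.58 and 7.08 CPM, or 6.55, 2.45, 60.4 and 96.3 times the level given by the list's share. Its change there did not pass (log2 fold change −2.17, SE 0.38, edgeR adjusted p = 0.0620, and −2.37 to −2.05 with any 1 library left out). P4ha2 in monocytes of HLU replicate 1 was at 36.2, beside 40.8 and 62.5 in the Ctrl libraries, and at 26.9 times the level that the list's share would give. In monocytes of HLU replicate 2 it was at 0.661, or 1.08 times that level. Ctrl monocytes had P4ha2 at 2.48 and 2.85 times and Adm at 2.71 and 2.42 times that level. In HLU replicate 1, P4ha2 in progenitors and T cells (5.91 and 8.25 times) and Adm in progenitors and monocytes (7.31 and 5.76 times) were also above it. These rested on 2 to 16 UMIs each. Both genes were below it in stage I and II neutrophils of that library, and P4ha2 in B cells and Adm in T cells had 0 UMIs. Over the 12 pairs of a Ctrl library and a non-osteochondral class, all 12 values of P4ha2 and 11 of Adm were within 3 times the level given by the list, as were 4 of Ndrg1, 2 of Slc2a1, and 1 each of P4ha1, Higd1a, Ak4 and Bhlhe40, and none of the other 31 genes.

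**Figure D4:**
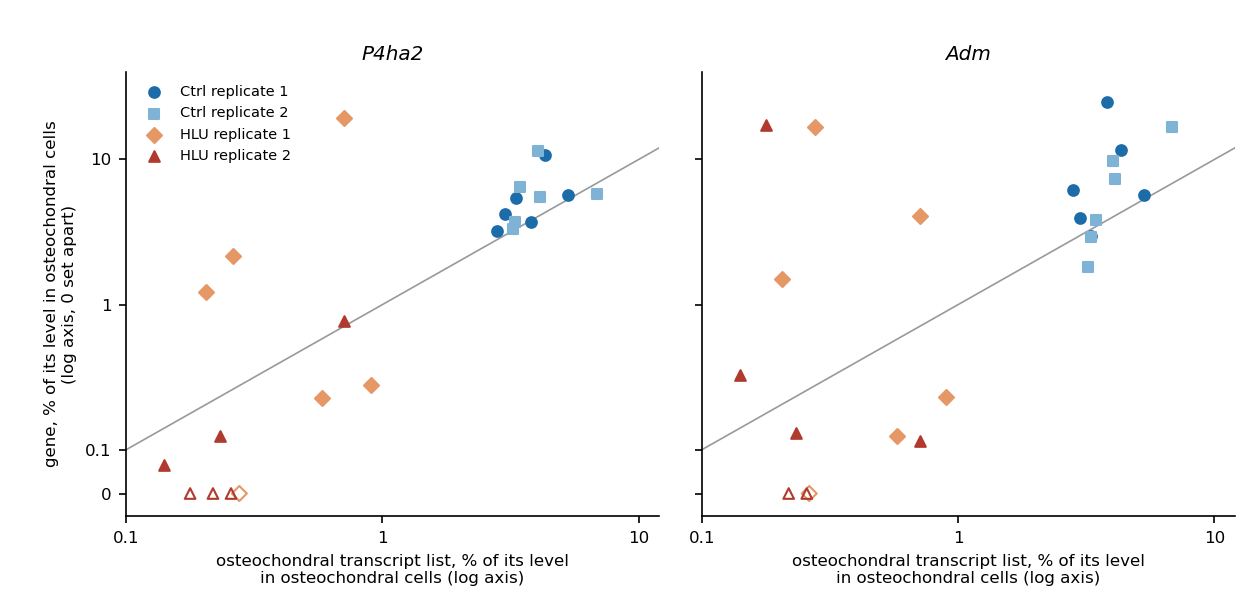
For P4ha2 (left) and Adm (right), the level in each of 6 non-osteochondral classes as a percent of the gene's level in osteochondral cells of the same library, against the same percent for the list of osteochondral transcripts (log axes; open symbols, 0 UMIs; line, equal percents). Ctrl symbols of P4ha2 lie at no more than 3 times the line. P4ha2 in monocytes of HLU replicate 1 (19.1% against 0.710%) and Adm in B cells of the HLU libraries lie farthest above it.

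Below the threshold, Selenbp1 had one of the 3 largest changes with separated groups in progenitors, stage I neutrophils and monocytes. In monocytes it was at 397, 287, 132 and 1.80 (log2 fold change −2.44, SE 1.54, edgeR adjusted p = 0.792), in progenitors at 188, 397, 89.3 and 5.92 (−2.76, SE 1.2, edgeR adjusted p = 0.772) and in stage I neutrophils at 153, 185, 58.2 and 0.885 (−2.64, SE 1.37, edgeR adjusted p = 0.669). Both HLU libraries were below both Ctrl libraries in these classes, by very different amounts. Progenitors had P4ha2 at 20.9, 20.3, 2.30 and 0.108 (−4.56, SE 1.15, edgeR adjusted p = 0.376) and Adm at 3.91, 6.42, 0.862 and 0.0539 (−4.05, SE 1.11, edgeR adjusted p = 0.480). Monocytes had Adm at 15.5, 21.3, 2.34 and 0.0472 (−4.40, SE 1.27, edgeR adjusted p = 0.688) and Slc2a3 at 64.2, 143, 45.9 and 8.83 (−1.98, SE 0.79, edgeR adjusted p = 0.792).

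Ddit4, an inhibitor of the growth kinase mTOR, was at 91.1, 160, 37.6 and 10.9 in stage II neutrophils, lower in both HLU libraries (log2 fold change −2.36, SE 0.55, edgeR adjusted p = 0.122). Ak4, a mitochondrial adenylate kinase, was at 11.0, 9.54, 1.11 and 0 in B cells (edgeR adjusted p = 0.188), and the 0 allows a level at least 4.85-fold below the Ctrl mean. In T cells Slc2a1 was at 98.7, 165, 63.4 and 12.03 (−2.09, SE 0.65, edgeR adjusted p = 0.692), Ankrd37 at 37.0, 53.9, 28.6 and 2.26 (−2.04, SE 0.86, edgeR adjusted p = 0.819) and Bnip3 at 197, 212, 135 and 3.76 (−1.83, SE 1.05, edgeR adjusted p = 0.869). HLU replicate 1 was the nearer to Ctrl in each of the 3.

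In osteochondral cells Higd1a was at 1707, 2109, 463 and 427 (log2 fold change −2.44, SE 0.29, edgeR adjusted p = 0.0763), and Ctrl and HLU did not overlap. Slc2a1 was at 341, 552, 158 and 72.3 (−2.32, SE 0.47, edgeR adjusted p = 0.101), and Egln3 at 105, 160, 25.1 and 4.13 (−3.72, SE 0.75, edgeR adjusted p = 0.103). The Higd1a change kept between −2.61 and −2.27 with any 1 library left out. The cells behind these values differ in kind: Ctrl cells came from 5 clusters, HLU replicate 1 from 3 of them (28 cells of the Col10a1 and Acan cluster, 22 of the Col9a1 and Matn3 cluster and 37 of the Ptx3 and Cxcl12 cluster) and HLU replicate 2 from all 5. Vegfa differed from the other HIF targets here, with 172, 325, 518 and 262 and overlapping groups, and was the only HIF target with a positive change in this class. Its change passed no threshold (edgeR adjusted p = 0.746).

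The distance of HLU replicate 2 was spread over the set. On a scale of log2(CPM + 1), with genes of a mean of at least 5 CPM, the median of the HIF targets in HLU replicate 2 minus the Ctrl mean was −4.43 in stage II neutrophils, −3.07 in stage I neutrophils, −3.05 in T cells, −2.84 in monocytes, −2.33 in B cells, −2.02 in osteochondral cells and −1.87 in progenitors. The median of all genes was between −0.32 and 0.40. In HLU replicate 1 the HIF medians were −1.10 in osteochondral cells and −0.70 to −0.49 elsewhere, with medians of all genes of 0.08 to 0.36. In HLU replicate 1 the glycolysis medians were −0.57 in osteochondral cells and −0.39 to −0.16 elsewhere. The Ctrl libraries differed too. In Ctrl replicate 2 minus Ctrl replicate 1 the median of the set was above 0 in each class, from 0.083 (T cells) to 0.67 (progenitors). In progenitors 1 of 38 genes was lower (39.3% of all genes), and in osteochondral cells 1 of 39 (57.0%). In stage II neutrophils 8 of 39 were lower (54.5% of all genes), and in T cells 16 of 38 (52.4%), where the glycolysis median was −0.010. For the HIF targets the median of Ctrl replicate 2 minus Ctrl replicate 1 was 0.15 in T cells and 0.32 to 0.48 in stage I and II neutrophils, monocytes and B cells. It was 0.60 in osteochondral cells and 0.73 in progenitors.

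**Figure D5:**
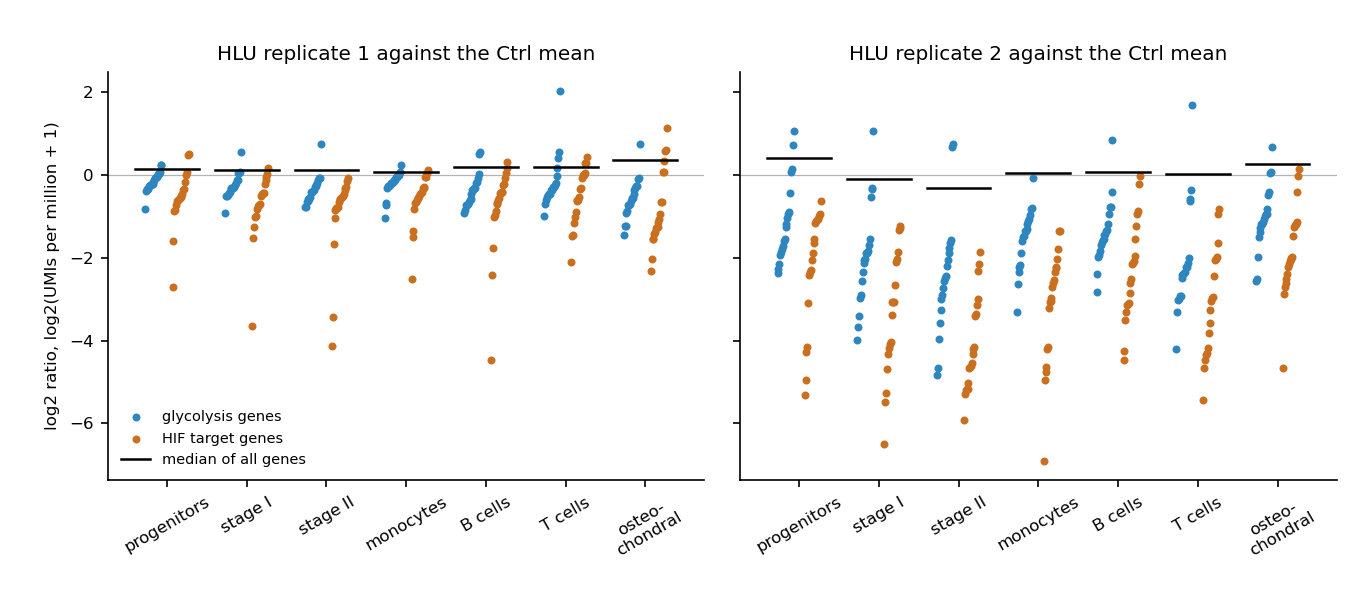
Log2 ratio of each HLU library to the Ctrl mean, on log2(CPM + 1), for the glycolysis genes (blue) and HIF target genes (orange) in 7 cell classes, with the median of all genes as a black bar. In HLU replicate 1 (left) most points lie slightly below the bar, and in HLU replicate 2 (right) most lie far below it, with the HIF median at −4.43 in stage II neutrophils.

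Gene by gene, HLU replicate 2 minus HLU replicate 1 was most negative over the classes for Bnip3 (median −3.81), Selenbp1 (−3.71), Egln3 (−3.58), Ankrd37 (−3.55) and Vegfa (−2.86). It was near 0 for Hk2 (0.091), Hk1 (−0.34), Pfkfb3 (−0.42) and Pfkfb4 (0.48), a few genes chosen here after their values were seen. The difference was present within single clusters: in 18 of 18 clusters that could be compared, each with 20 or more cells in a library, HLU replicate 2 was lowest in both sums. The lowest other library was 9.42 to 12.6 times HLU replicate 2 for the HIF sum in the 4 clusters of stage II neutrophils, 3.01 to 7.69 times in stage I and 1.28 to 3.48 times in osteochondral cells. It also appeared cell by cell, since the median HIF sum per cell of stage II neutrophils was 9627, 10526, 4929 and 512 CPM, and the upper decile of HLU replicate 2, 1326, was below the median cell of each other library. Barcodes under 1000 UMIs, which were not used above, gave HIF sums of 5689, 7101, 3604 and 859.

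Other measures moved with HLU replicate 2. In stage II neutrophils the median mitochondrial share of UMIs was 0.445%, 0.483%, 0.357% and 0.210%, and transcripts of 17 genes induced by tissue dissociation made up 0.543%, 0.576%, 0.423% and 0.216% of UMIs. Over the 7 classes that dissociation share was lowest in HLU replicate 2 in each. In stage II neutrophils, progenitors and monocytes the libraries stood in the same order for the dissociation share and for the HIF sum. In stage I neutrophils, B cells, T cells and osteochondral cells the 2 orders differed. The dissociation share of osteochondral cells was 0.994%, 0.688%, 0.680% and 0.307%, while their HIF sum was higher in Ctrl replicate 2 than in Ctrl replicate 1. In T cells the share was 0.284%, 0.556%, 0.368% and 0.108%, while their HIF sum was lower in HLU replicate 1 than in both Ctrl libraries. The time from death to capture is not given in the sources used here, and the part of handling in the levels of the 39 genes was not tested.

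A few members did not follow the set. Pfkfb4 was at 20.4, 29.7, 36.7 and 52.8 in stage I neutrophils and at 25.7, 29.9, 47.3 and 45.1 in stage II neutrophils. Both HLU libraries were higher each time, as they were for 20.7% and 16.9% of all genes. Neither passed the test (log2 fold change 0.86, SE 0.37, edgeR adjusted p = 0.597, and 0.89, SE 0.33, edgeR adjusted p = 0.428). Hk1, the housekeeping hexokinase, was at 37.8, 53.1, 53.6 and 94.8 in progenitors (0.46, SE 0.35, edgeR adjusted p = 0.772) and at 84.2, 119, 77.2 and 32.9 in stage II neutrophils, so HLU replicate 2 was highest in the first and lowest in the second. Pfkfb3 gave 44.1, 69.3, 34.8 and 93.6 in stage II neutrophils, where HLU replicate 2 was highest and HLU replicate 1 lowest.

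The size of the HLU effect was compared between monocytes and 2 other classes in a fit with a term for each library. Against stage II neutrophils 1 of the 39 genes was called, P4ha2, whose change was less negative in monocytes by 4.72 on the log2 scale (SE 0.64, edgeR adjusted p = 0.0398), where 0.245% of 11018 genes were called. The part of osteochondral RNA in this difference was not tested. DESeq2 also called P4ha2 alone (0.644% of all genes). Without HLU replicate 1 there were 29 such genes (24% of all genes called), without HLU replicate 2 there were 2 (1.45%), and without either Ctrl library 1 (0.504% and 0.521%). Against B cells edgeR called 0 of the 39 genes (0% of 10611 genes), 6 of the 39 had an unadjusted p under 0.05 (5.62% of all genes), and DESeq2 called 0 (0.0283% of all genes). Without HLU replicate 1 there were 8 (5.22% of all genes), and without HLU replicate 2 there was 1 (0.0905%).

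Other genes of the pathways were counted from lists. Of 12 genes that set HIF activity, such as the HIF subunits and the ubiquitin ligase that marks them, 10 or 11 were tested per class and 0 were called by edgeR, with 0 to 2 at an unadjusted p under 0.05 and medians of −0.09 to 0.16. Of 19 further HIF targets, 11 to 19 were tested and 0 to 3 called lower: 3 of 16 in stage I neutrophils and 2 of 16 in stage II neutrophils, where 2.2% and 2.71% of all genes were called lower, 1 each in progenitors, B cells and T cells (0.465%, 0.709% and 0.442% of all genes), and 0 in monocytes and osteochondral cells, with medians of −1.28 (stage II neutrophils) to −0.41 (B cells). Of 25 further genes of glycolysis and pyruvate use, 6 to 18 were tested, and 1 was called, lower in stage II neutrophils (1 of 12, beside 2.71% of all genes), with medians of −0.50 to 0.19. The medians of these further glycolysis genes were nearer to 0 than those of the 19 genes in each of the 7 classes. Both lists were chosen with earlier results of these data known, so this contrast is not an independent one.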

How the data were processed

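Single cells of 4 bone libraries (2 Ctrl, 2 HLU) had been captured with a 10x 3′ kit. Per the labels and the study's methods, the authors aligned reads to mm10 with Cell Ranger 6.0.0 and deposited unnormalised UMI counts per gene and barcode, and they analysed them with Seurat 4.1.0. Here barcodes with 1000 to 40000 UMIs and at most 10% mitochondrial UMIs were kept. They were clustered with Seurat 5.3.0 (integration by canonical correlation, 2000 variable genes without the 39 genes and the pathway lists, 50 components, resolution 1, 33 clusters). A cluster was named where at least 4 markers of a type were raised, a minimum set after clusters had been seen. Putative doublets were called with Scrublet (scanpy 1.11.5) in place of the study's DoubletFinder and were kept in the main values.

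UMIs were summed per library and class and tested with edgeR 4.0.16 (trimmed mean normalisation, filter on low counts, quasi-likelihood test, Benjamini-Hochberg adjustment), with 2 libraries a group, in R 4.3.3, and the code was tested on simulated data. Differences between classes were tested with a term for each library. The depth was 45347595 to 87604282 UMIs per library, and intervals and limits from 3 counts cover counting error only. Since the labels do not say that libraries are separate animals, p-values measure the spread between these libraries. The second identifier of Aldoa did not enter the tests, while levels sum both. Named by rule were the called genes, the 3 largest changes per class with separated groups, the 8 largest ratios between classes, and 7 pairs. Every other gene was named after its values were seen. The 39 genes and all lists were chosen with earlier results of these data known. Alternatives were DESeq2 1.42.0, its size factors, normalisation without ribosomal, osteochondral and haemoglobin genes, other count filters, a replicate block, no library term, means per cell, other resolutions, no integration, no check within libraries, no putative doublets, a haemoglobin limit and each library left out. Fewer markers, and leaving out libraries for summed levels, were added after seeing the data.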

Additional observations from a re-analysis of the deposited data

Results flagged for a closer look

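The HLU effect on P4ha2 differed between monocytes and stage II neutrophils by 4.72 on the log2 scale (SE 0.64, edgeR adjusted p = 0.0398). Monocytes of HLU replicate 1 held 36.2 CPM of this gene and those of HLU replicate 2 held 0.661, while stage II neutrophils of both were under 1. Beside the level that the share of the osteochondral list would give, P4ha2 was at 1.07, 1.35, 0.312 and 0.556 times in stage II neutrophils. In monocytes it was at 2.48, 2.85, 26.9 and 1.08 times that level. The part of osteochondral RNA in this difference was not tested. Without the library term the difference was not called.

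Hk1 had a log2 fold change of 0.46 in neutrophil progenitors, which did not pass the test (edgeR adjusted p = 0.772). By CPM both HLU libraries were above both Ctrl libraries there, as were 33.3% of all genes. The gap was narrow, with Ctrl replicate 2 at 53.1 and HLU replicate 1 at 53.6 CPM before normalisation between libraries. The normalisation factors, by which levels are divided, were 0.951 and 1.01, so normalisation places HLU replicate 1 below Ctrl replicate 2. Both HLU libraries were below both Ctrl libraries in stage I neutrophils, stage II neutrophils, monocytes, T cells and osteochondral cells. These 5 differences between classes were not tested.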

How the results depend on the processing

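Direction was followed for class medians, summed levels and the fold changes of called genes and of the 3 largest changes per class. None of these changed direction under any alternative that was run. The counts of called genes depended on the filter, the tool and the libraries, and the cause was not tested. Where no share of all genes called is given in this paragraph, only the direction against the main calls is stated. It is not read as a result about the set. With no filter the calls in progenitors, stage I, stage II, monocytes, B cells, T cells and osteochondral cells were 11, 19, 18, 13, 13, 17 and 25. With a minimum of 10 counts there were fewer in stage I, stage II and B cells and in the monocyte and stage II difference. Osteochondral cells then had more. DESeq2 called 2, 4, 2 and 20 in progenitors, stage I, monocytes and osteochondral cells, and 1.85%, 3.28%, 1.51% and 6.67% of all genes. Without putative doublets stage I and B cells had fewer calls. At resolution 0.5 B cells and osteochondral cells had more calls, and the B cell HIF difference was −1870 CPM. With no integration B cells had 0 and osteochondral cells 5, the stage I median was −1.84 and its HIF difference −3971, and the monocyte and stage II difference had 0 calls, as it had with no library term.

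The replicate block gave 1 call in monocytes and 4 in osteochondral cells (1.01% and 2.11% of all genes). In progenitors, stage I, stage II, B and T cells it gave 0, 2, 3, 1 and 0 (1.35%, 2.51%, 4.05%, 0.801% and 0.442% of all genes). Same-numbered libraries correlated at −0.0736 to 0.247 in their deviations, by class, over 2 pairs, and no label ties a number to an animal, litter or day.

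With 1 library left out, calls ranged from 0 to 36 in progenitors, 2 to 36 in stage I, 2 to 39 in stage II, 0 to 38 in monocytes, 0 to 33 in B cells, 0 to 31 in T cells and 0 to 26 in osteochondral cells, and from 1 to 29 and 0 to 8 in the differences of monocytes from stage II and B cells. Medians in the same order of classes ranged from −2.07 to −0.42, −2.43 to −0.55, −2.88 to −0.62, −2.24 to −0.37, −1.80 to −0.67, −2.43 to −0.60 and −1.62 to −0.99. HIF differences ranged from −2215 to −814, −3029 to −1195, −8910 to −3471, −5639 to −2102, −1549 to −709, −2625 to −572 and −5576 to −2971. With 1 library left, a group is assumed to vary like the other. Low counts limit Adm, P4ha2, Ak4 and the T cells.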

Other observations

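Bnip3l, which also clears mitochondria from maturing red cells, was at 647 and 866 CPM in the erythroid cells of HLU replicate 1 (49 cells) and HLU replicate 2 (416 cells). In these cells the HIF targets summed to 1283 and 1065.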
